A study of Mus musculus with 6 samples.

Results

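Spermatogonia depend on signals from the somatic cells around them, and 10 genes that encode such signals were followed here in the testes of mice whose germ cells had lost *Srsf1*. The genes were *Kitl*, *Cxcl12*, *Csf1*, *Fgf2*, *Fgf9*, *Wnt5a*, *Wnt6*, *Bmp4*, *Igf1* and *Vegfa*. They were selected by name as ligands of somatic testis cells other than GDNF, and each matched 1 of the 54532 genes in the deposited table. Whole testes were taken at 5 days postpartum (dpp), and polyadenylated RNA was sequenced from 3 control (Ctrl) and 3 conditional knockout (cKO) samples. The cKO mice carried *Vasa*-Cre with *Srsf1* Fl/del, so that Cre made under the germ cell gene *Vasa* (*Ddx4*) removed exons 2, 3 and 4 of the floxed *Srsf1* allele. The alleles of the Ctrl mice were not given in the sources used here. By the notation Fl/del, the other allele was already in its deleted form. Where somatic cells carried it too, its part in the values of somatic genes cannot be separated from that of *Srsf1* loss in germ cells. Nor were strain, litter or any pooling of animals given for these samples. The question addressed was whether transcripts of niche growth factors differ between testes with and without *Srsf1* in their germ cells. Samples are named by the group and number in their labels, and values after ± are SDs of the 3 samples of a group.

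The niche of the neonatal testis is made by Sertoli cells, which enclose the germ cells inside the cords, by the peritubular myoid cells that wrap the cords, and by Leydig cells, macrophages and vessels between them. KIT ligand and CXCL12 come largely from Sertoli cells. The first acts through the receptor KIT on differentiating spermatogonia, and the second draws and holds cells that carry CXCR4. FGF2, FGF9, WNT5A, WNT6 and BMP4 act over short distances on spermatogonia or on the somatic cells themselves, CSF1 is made by interstitial and peritubular cells and supports macrophages, IGF1 is a growth factor of Leydig and Sertoli cells, and VEGFA acts on endothelium.

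A single value per gene covers every transcript form, and for *Kitl* the forms differ in function. *Kitl* (ENSMUSG00000019966, chromosome 10, 100015630 to 100100416, + strand of GRCm38) has an exon of 84 bases, exon 6 of 10, that carries the site where the membrane protein is cut to release soluble KIT ligand. Without it, the ligand stays mostly on the cell surface. Among the 4 protein-coding transcripts of *Kitl* in GENCODE mouse release 21, 1 contained this exon and 1 joined its neighbours without it. The exon lies at chr10:100080857-100080940 and is coding throughout. It is shown because the deposited values sum the forms with and without it, so that a shift between soluble and membrane-bound ligand would not be seen. The exon stands in capitals between 20 bases of each neighbouring exon as joined in the transcript.

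*Kitl* exon 6: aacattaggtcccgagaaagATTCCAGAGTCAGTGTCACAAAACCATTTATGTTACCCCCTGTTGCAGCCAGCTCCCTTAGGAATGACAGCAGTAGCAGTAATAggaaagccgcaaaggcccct

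*Cxcl12* (ENSMUSG00000061353, chromosome 6, 117168535 to 117181367, + strand) was the ligand gene with the widest difference on the log2(FPKM + 1) scale among the 9 that passed the filter described below. The 250 bases before its RefSeq start are therefore shown, from GRCm38.p6 at chr6:117168285-117168534 on the + strand. Capitals mark the letters GGGCGG and, for the other strand, CCGCCC, the core of the GC box. The first was found once and the second 4 times, 2 of them sharing a base. Either one was present in 32.7% of the 32851 windows of this length in the RefSeq promoter table, so that the match is a common feature and says nothing of which factor acts there. Of the 10 ligand genes, 9 had a window in that table, and for 7 of these it held one or the other.

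*Cxcl12* upstream: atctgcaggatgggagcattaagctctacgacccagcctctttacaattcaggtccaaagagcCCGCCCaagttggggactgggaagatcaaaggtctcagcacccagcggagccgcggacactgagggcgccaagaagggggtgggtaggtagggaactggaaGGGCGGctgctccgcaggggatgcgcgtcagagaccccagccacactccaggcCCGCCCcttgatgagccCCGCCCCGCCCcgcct

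The libraries held between 15448191 and 18964743 reads counted on genes, recovered from gene length and FPKM. FPKM is a fragment count scaled to gene length and to the library. *Srsf1* was lower in cKO samples without overlap, with 47.7 ± 3.48 FPKM in cKO and 86.6 ± 3.85 FPKM in Ctrl samples, and its adjusted p in limma was 0.058. The 20 germ cell markers summed to 202.2, 486.5 and 213.7 FPKM in Ctrl 1, 2 and 3, against 60.6, 107.8 and 74.0 FPKM in cKO 1, 2 and 3, so that Ctrl 2 stood apart from the other Ctrl samples. All 15 Sertoli markers and all 10 Leydig markers were above the filter described below. Because the extraction notes in the labels speak of retinas, 8 photoreceptor genes were checked, and none of them averaged more than 0.129 FPKM. In these bulk samples, fewer cells of a type and less RNA per cell cannot be told apart.

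The ligand genes spanned more than 2 orders of magnitude in FPKM, a scale per gene length on which levels of different genes can be set side by side. In Ctrl testes the order of the means ran from *Wnt6* at 106.3 ± 17.4 FPKM through *Kitl* (63.8 ± 4.66), *Igf1* (48.3 ± 8.87), *Cxcl12* (29.9 ± 5.66), *Wnt5a* (14.5 ± 1.30), *Vegfa* (9.94 ± 2.05), *Fgf2* (5.39 ± 0.363), *Bmp4* (4.21 ± 0.871) and *Csf1* (3.32 ± 0.556) to *Fgf9* at 0.467 ± 0.124 FPKM (SD, n = 3). Neighbours in this order had separate ranges in the Ctrl samples, except for *Bmp4* and *Csf1*. In cKO testes *Kitl* and *Igf1* were the neighbours whose ranges overlapped, at means of 54.1 and 54.0 FPKM. *Wnt6* had a higher mean level than 97.5% of the 16206 genes tested, and *Csf1* than 36.1%. Behind these values stood 139 to 9305 reads per sample for all but *Fgf9*.

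**Figure D1:**
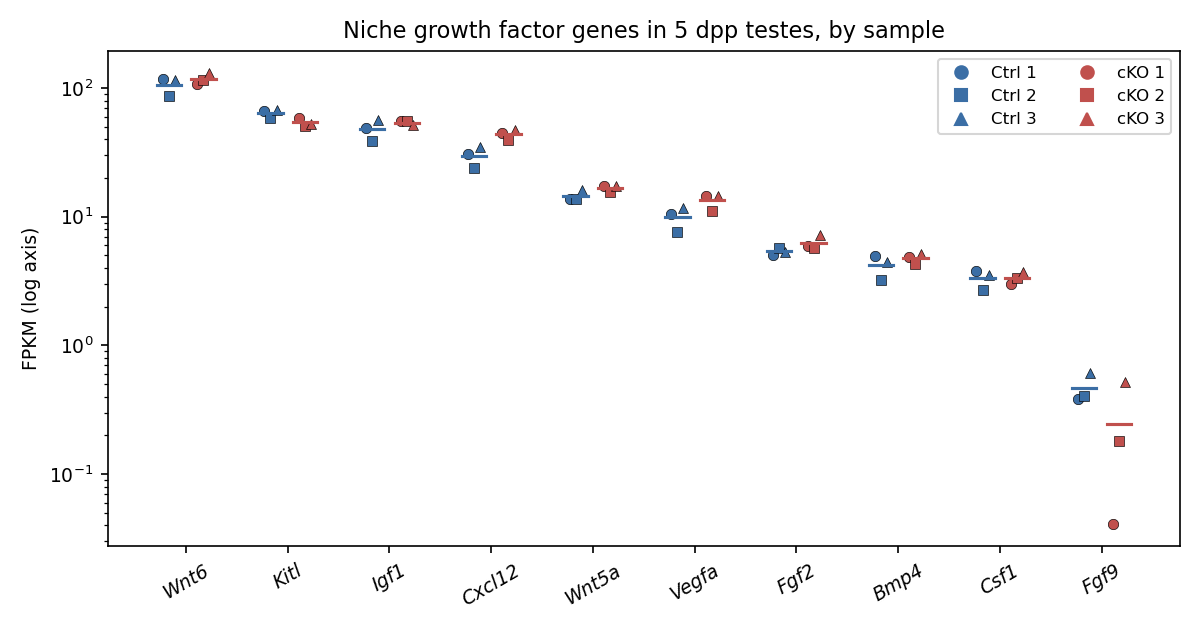
FPKM of the 10 ligand genes (x axis, in order of the Ctrl mean) on a log axis, with 1 point per sample and a line at each group mean of 3 samples. The Ctrl means run from *Wnt6* near 106 FPKM to *Fgf9* under 1 FPKM, and in cKO samples the points of *Kitl* and *Igf1* overlap. The 2 groups lie apart for *Cxcl12* and, by a small margin, for *Kitl*.

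No ligand gene passed the test. Differences were tested with limma on log2(FPKM + 1) over the 16206 genes that averaged at least 0.5 FPKM, and 9 of the 10 ligand genes were among them. At an adjusted p of 0.05, 0 of the 9 were called, as were 0% of all genes tested. The deleted *Srsf1* was also not called, so this count does not set the ligand genes apart from other genes. With a test on read counts, the paper reported differentially expressed genes in both directions between these groups. At an unadjusted p under 0.05, 2 of the 9 were higher in cKO testes (*Cxcl12* and *Vegfa*) and 1 was lower (*Kitl*), against 6.6% and 9.31% of all genes. Limma voom on the recovered reads, which called 0.512% of all genes, likewise called 0 of the 9. On average 8 of the 9 genes were higher in cKO testes and 1 was lower. Their median log2 difference was 0.17, beside 0.0027 over all genes tested, of which 50.5% were higher. As an alternative, each sample was centred on the median log2 FPKM of the 15 Sertoli markers, with medians of 6.14, 5.50 and 6.09 for Ctrl 1, 2 and 3, compared with 6.45, 5.69 and 6.44 for cKO 1, 2 and 3. This moved the median log2 difference of all genes to −0.22 and that of the 9 genes to −0.074, with 2 of the 9 above 0. Without the centring, the median of the log2 differences of the same 15 markers was 0.0025. Each sample median was the value of 1 gene: *Cldn11* in Ctrl 1 and 2, *Inhbb* in cKO 1, and *Ptgds* in Ctrl 3, cKO 2 and cKO 3. Their cKO means were 49.5%, 120.3% and 182.6% of their Ctrl means, so the centring followed single genes that changed between samples. These genes were named after their values were seen. With 3 samples per group, differences inside the 95% interval of a gene could not be told apart.

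*Cxcl12*, the chemokine gene, gave 30.9, 23.8 and 35.0 FPKM in Ctrl 1, 2 and 3, compared with 44.9, 39.7 and 46.9 FPKM for cKO 1, 2 and 3. All cKO samples were above all Ctrl samples, a separation in this direction shown by 10.3% of the genes tested. The cKO mean was 146.6% of the Ctrl mean. The log2 difference was 0.55 (SE 0.15, 95% interval 0.21 to 0.89), with an adjusted p of 0.166 in limma. Over 16 alternative fits it ranged from 0.27 to 0.67, with adjusted p from 0.086 to 0.928. Without Ctrl 2, the Ctrl sample richest in germ cell markers and lowest in *Cxcl12*, it was 0.40.

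*Kitl*, which encodes the ligand of KIT, was the gene in the opposite position. It gave 65.8, 58.5 and 67.2 FPKM in the Ctrl testes, compared with 58.3, 51.1 and 53.0 FPKM for cKO. The highest cKO value lay just under the lowest Ctrl value, and 12.8% of all genes tested were separated in this direction. The cKO mean was 84.8% of the Ctrl mean, and the log2 difference was −0.23 (SE 0.093, 95% interval −0.45 to −0.014, adjusted p 0.296 in limma). Leaving out each sample in turn gave −0.29 to −0.19, with −0.29 in the absence of Ctrl 2.

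*Vegfa* (chr17:46016993-46032369, − strand), the angiogenic factor, gave 10.6, 7.65 and 11.6 FPKM in the Ctrl testes, compared with 14.5, 11.2 and 14.5 FPKM for cKO. The groups overlapped, because cKO 2 was below Ctrl 3. Its log2 difference of 0.40 (SE 0.17, 95% interval 0.014 to 0.80, adjusted p 0.304 in limma) was the second highest among the ligand genes, and without Ctrl 2 it was 0.24. In both groups the sample numbered 2 was the lowest.

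The WNT ligand genes were expressed at different levels and neither was separated between the groups. *Wnt6* (chr1:74771892-74785322, + strand) gave 117.5, 86.3 and 115.2 FPKM in the Ctrl testes, compared with 107.2, 115.4 and 130.3 FPKM for cKO. Its log2 difference was 0.15 (95% interval −0.18 to 0.49), and it was 0.011 without Ctrl 2, 0.078 without cKO 3 and 0.23 without Ctrl 1. The antisense gene *Gm29539*, which shares 2463 bases of the *Wnt6* locus, averaged 3.35 ± 1.17 FPKM in Ctrl samples and 3.34 ± 0.756 FPKM after knockout. *Wnt5a* (chr14:28504750-28527448, + strand), a ligand of ROR2, gave 13.7, 13.8 and 16.0 FPKM in the Ctrl testes, compared with 17.3, 15.7 and 17.2 FPKM for cKO. Here cKO 2 alone lay within the Ctrl range. The log2 difference was 0.20 (95% interval −0.022 to 0.41, adjusted p 0.359 in limma), with 0.17 left without Ctrl 2.

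The FGF genes differed in how well they could be measured. *Fgf2* (chr3:37348346-37410108, + strand) gave 5.04, 5.76 and 5.36 FPKM in the Ctrl testes, compared with 5.91, 5.70 and 7.16 FPKM for cKO, a log2 difference of 0.18 (95% interval −0.071 to 0.43) with overlapping groups. It was 0.22 without Ctrl 2 and 0.094 without cKO 3. *Nudt6*, on the opposite strand, shares 5199 bases of the locus and averaged 1.77 ± 0.150 FPKM in Ctrl samples and 1.46 ± 0.657 FPKM after knockout. Whether counting used the strand was not given in the sources used here, so reads in that stretch cannot be told apart between the genes. The same holds for the other overlaps. *Fgf2os*, *Gm42923* and *Gm43439* at *Fgf2*, *Gm17109* at *Fgf9*, *Gm2670* at *Wnt5a*, *Gm15217* at *Bmp4* and *Igf1os* at *Igf1* each had group means of at most 0.371 FPKM, while *Kitl*, *Cxcl12*, *Csf1* and *Vegfa* overlapped no other gene of the table. *Fgf9* (chr14:58070547-58112720, + strand), known for its role in fetal testis formation, rested on 29, 36 and 47 reads in Ctrl and on 3, 14 and 37 reads in cKO samples. These reads gave 0.385, 0.407 and 0.609 FPKM against 0.041, 0.180 and 0.515 FPKM. The value of cKO 1 was at the floor of 3 reads, the groups overlapped, and *Fgf9* stayed under the filter. In a fit with no filter its log2 difference was −0.25 (adjusted p 0.629 in limma).

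*Igf1*, *Bmp4* and *Csf1* overlapped between the groups as well. *Igf1* (chr10:87858265-87937042, + strand) gave 49.4, 39.0 and 56.6 FPKM in the Ctrl testes, compared with 55.6, 55.0 and 51.3 FPKM for cKO. All cKO values lay within the Ctrl range, and the log2 difference was 0.17 (95% interval −0.15 to 0.49). *Bmp4* (chr14:46383520-46390669, − strand), a TGF-beta family ligand, gave 4.95, 3.25 and 4.42 FPKM in the Ctrl testes, compared with 4.86, 4.26 and 5.10 FPKM for cKO. Its log2 difference was 0.15 (95% interval −0.18 to 0.49), with overlapping groups, and the antisense gene *Gm15222* inside the locus was at 1.33 ± 0.303 and 1.05 ± 0.121 FPKM. *Csf1* (chr3:107741048-107760469, − strand), the macrophage growth factor, gave 3.76, 2.70 and 3.52 FPKM in the Ctrl testes, compared with 3.01, 3.34 and 3.71 FPKM for cKO. Its cKO mean was 101.0% of the Ctrl mean, and the interval of the log2 difference ran from −0.29 to 0.32. Without Ctrl 2, the log2 differences of these genes were 0.029, 0.013 and −0.093. The highest values with 1 sample left out were 0.29 for *Igf1* (Ctrl 3), 0.26 for *Bmp4* (Ctrl 1) and 0.089 for *Csf1* (Ctrl 1).

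**Figure D2:**
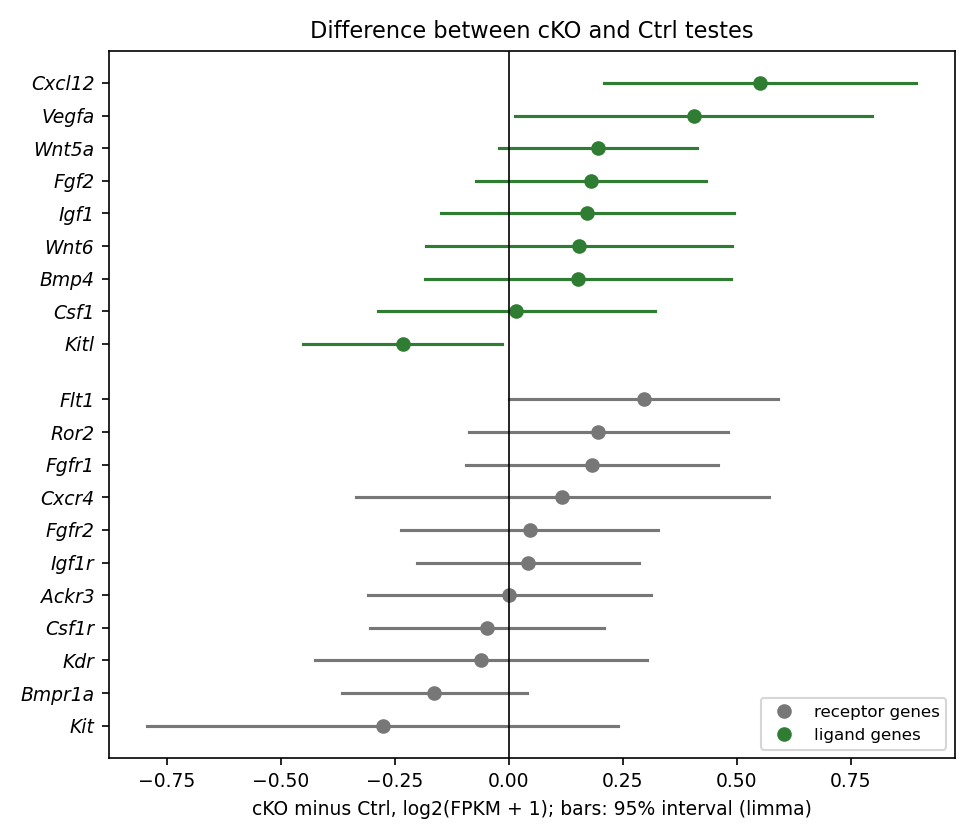
Difference between cKO and Ctrl testes on the log2(FPKM + 1) scale for the 9 tested ligand genes and for 11 receptor genes, with the 95% interval from limma as a bar. The intervals of *Cxcl12*, *Vegfa* and *Kitl* lie beside 0 among the ligands and that of *Flt1* among the receptors, before any adjustment over genes, and all others cross 0.

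Low values recurred in the same samples. Ctrl 2 was the lowest of the 6 samples for 6 of the 10 genes, and cKO 2 was the lowest cKO sample for 6. The 9 tested genes averaged 4.27, 4.004 and 4.33 in log2(FPKM + 1) for Ctrl 1, 2 and 3, while the same mean was 4.39, 4.29 and 4.46 for cKO 1, 2 and 3. The cKO range overlapped the Ctrl range. Without Ctrl 2, the median log2 difference of the 9 genes was 0.029 rather than 0.17, with 7 of the 9 higher.

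Marker genes of the cells that make or receive these ligands were measured in the same samples. The germ cell list averaged 2.91, 3.85 and 2.80 in log2(FPKM + 1) in the Ctrl samples and 1.68, 2.26 and 1.88 in the cKO samples. Of its 20 genes, 19 passed the filter, and for 16 of these all cKO samples lay below all Ctrl samples, a separation found for 12.8% of all genes tested. The Sertoli list of 15 genes averaged 6.25, 5.84 and 6.29 among the Ctrl testes, beside 6.09, 6.11 and 6.18 after knockout, with Ctrl 2 again the lowest. Of its 15 genes, 1 was higher and 3 were lower without overlap, against 10.3% and 12.8% of all genes tested. The higher one was *Amh*, the anti-Mullerian hormone gene, at 164.3% of its Ctrl mean. The lower ones were the junction gene *Cldn11* at 49.5%, the transcription factor gene *Gata1* at 44.9% and *Aard* at 75.4%. All of them were named after their values were seen. Summed, the Sertoli list reached 2494 to 3868 FPKM in Ctrl samples and 3459 to 3938 FPKM after knockout. The Leydig list of 10 genes had a median log2 difference of 0.31, and 4 of its genes were higher without overlap, against 10.3% of all genes tested. The 8 endothelial markers had a median of 0.36, with 5 higher without overlap against the same 10.3%, and summed to 61.2 to 69.4 FPKM in Ctrl against 81.2 to 90.3 FPKM in cKO samples. For the 6 stromal, 6 peritubular myoid and 11 macrophage genes the medians were 0.26, −0.35 and 0.050, with 10 of the macrophage genes above the filter. Without overlap, 2 stromal genes and 1 peritubular myoid gene were higher and 2 peritubular myoid genes were lower, against 10.3% and 12.8% of all genes tested. The peritubular myoid list summed to 520.7, 521.8 and 532.6 FPKM in Ctrl 1, 2 and 3, against 377.2, 327.7 and 510.7 FPKM in cKO 1, 2 and 3. The 5 erythroid genes had a median of 0.69, with overlapping groups for each. The part of these shifts in the ligand values was not tested.

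**Figure D3:**
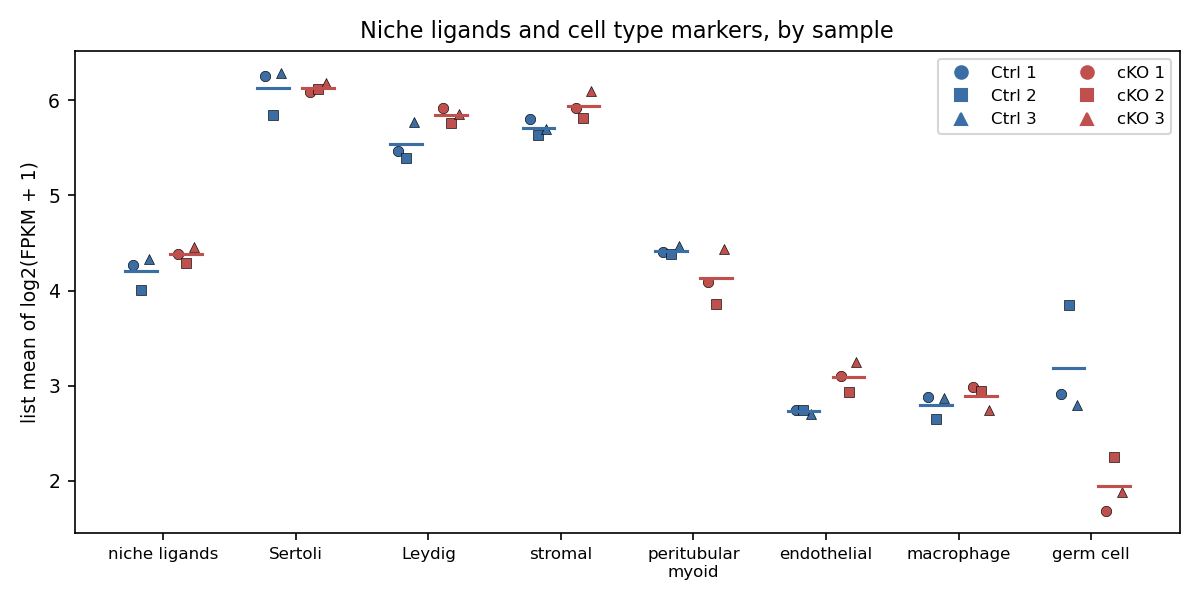
Mean log2(FPKM + 1) of the 9 tested ligand genes and of 7 cell type marker lists, with 1 point per sample and a line at each group mean of 3 samples. Ctrl 2 is lowest for the ligand and Sertoli lists and highest for the germ cell list, whose cKO samples all lie under the Ctrl samples.

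The balance among the ligands was described by dividing each one by *Kitl* of the same sample, a ratio into which no scaling between samples enters. *Kitl* was taken as the divisor after its values had been seen, and the ratios were not tested. *Cxcl12* was at 0.470, 0.407 and 0.521 of *Kitl* in Ctrl 1, 2 and 3 and at 0.770, 0.777 and 0.885 of *Kitl* in cKO 1, 2 and 3. The mean ratio in cKO testes was 1.74 times that in Ctrl testes. *Vegfa* relative to *Kitl* was at 0.155 ± 0.022 in Ctrl and 0.247 ± 0.028 in cKO testes, and *Igf1* relative to *Kitl* was at 0.753 ± 0.088 and 0.9996 ± 0.067. The ratios of 7 of the 8 genes lay higher in all cKO samples than in all Ctrl samples, with means between 1.32 and 1.74 times the Ctrl mean. *Csf1* was the one with overlap. *Kitl* itself was lower in cKO samples, and 31.6% of all genes tested showed such a separation in their ratio to it.

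**Figure D4:**
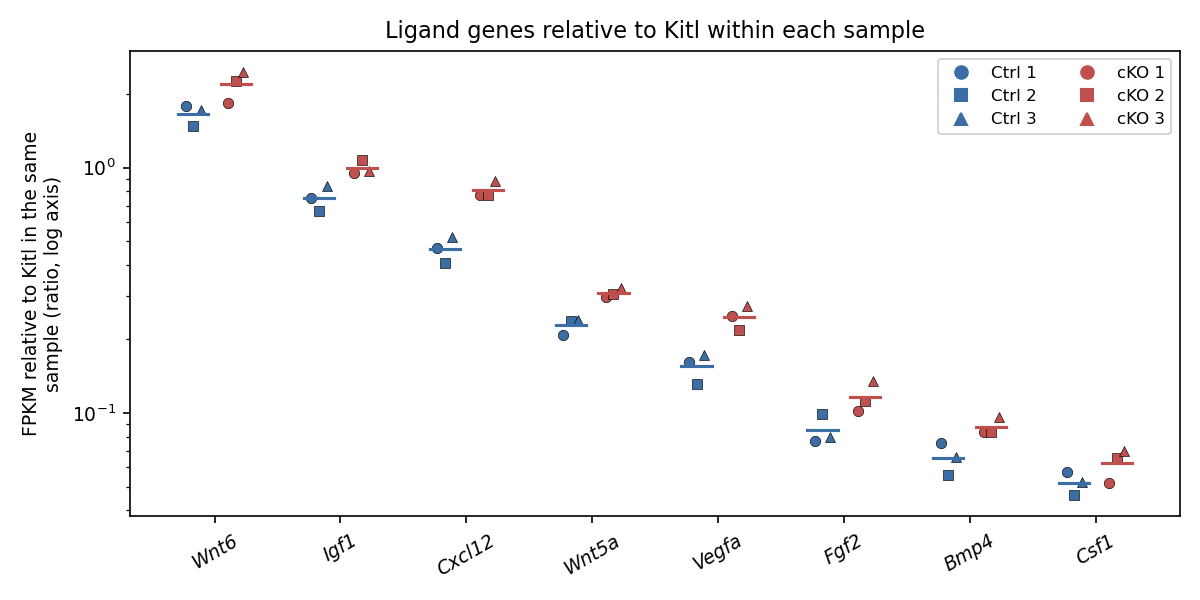
FPKM of 8 ligand genes divided by the FPKM of *Kitl* in the same sample, on a log axis, with 1 point per sample and a line at each group mean of 3 samples. The cKO points lie above the Ctrl points for every gene but *Csf1*, and the gap is widest for *Cxcl12*, from 0.407 to 0.521 in Ctrl and from 0.770 to 0.885 in cKO samples.

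The receptors of these ligands were compared next, and 0 of the 37 tested genes of 38 listed passed the adjusted threshold. At an unadjusted p under 0.05, 4 receptor genes were higher and 0 were lower in cKO testes, against 6.6% and 9.31% of all genes tested. The median log2 difference of the 37 tested receptor genes was 0.082. *Kit*, present on differentiating spermatogonia and on Leydig cells, gave 3.58, 5.96 and 3.13 FPKM in the Ctrl testes, compared with 2.62, 4.10 and 3.01 FPKM for cKO. In both groups the sample numbered 2 was the highest, as it was for the germ cell list, of which *Kit* is a member. The log2 difference was −0.28 with a wide interval, −0.79 to 0.24, and without Ctrl 2 it was −0.051. Leaving out the other samples in turn gave values down to −0.43, the one without Ctrl 3, with −0.17 without cKO 1 and −0.42 without cKO 2. *Cxcr4* and *Ackr3*, the receptors of CXCL12, had log2 differences of 0.12 and 0.00098 with overlapping groups, and their signs were not stable across the alternatives.

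Receptors of the other ligands were mostly close to their Ctrl levels, and none passed the adjusted threshold. *Bmpr1a*, a BMP type I receptor gene, averaged 39.4 ± 0.773 FPKM in Ctrl samples and 35.1 ± 2.98 FPKM after knockout, and its groups did not overlap. Its log2 difference was −0.16 (adjusted p 0.408 in limma), and −0.11 without cKO 3. *Flt1*, a VEGFA receptor gene of endothelium, gave 0.526, 0.428 and 0.415 FPKM in the Ctrl testes, compared with 0.715, 0.842 and 0.805 FPKM for cKO. These low values gave a log2 difference of 0.30 on the scale with a pseudocount, with an adjusted p of 0.313 in limma. With a pseudocount of 0.1 it was 0.68 (adjusted p 0.331 in limma), and limma voom gave 0.80 with an adjusted p of 0.068. *Kdr*, the other VEGFA receptor gene, was at 4.72 ± 0.493 and 4.53 ± 1.03 FPKM. *Fgfr1*, *Ror2*, *Fgfr2*, *Igf1r* and *Csf1r* had log2 differences of 0.18, 0.20, 0.045, 0.041 and −0.048, each with overlapping groups. Without cKO 3, those of *Fgfr1* and *Ror2* were 0.066 and 0.080, and the signs of the other receptors of this group changed when 1 sample was left out. *Insr*, the insulin receptor gene, had the lowest unadjusted p among the higher receptor genes, at a log2 difference of 0.27 (adjusted p 0.292 in limma). Among the lower ones this was *Acvr2b*, an activin and BMP type II receptor gene, at −0.43 (adjusted p 0.319 in limma) and at −0.24 without Ctrl 2.

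Extracellular modulators, which bind these ligands or help release them, held the widest single differences. None of the 27 tested of 36 listed passed the adjusted threshold, and 5 were higher and 4 lower at an unadjusted p under 0.05, beside the same 6.6% and 9.31% of all genes, to which the counts of the remaining lists also compare. *Chrdl1*, a secreted BMP antagonist gene, gave 6.87, 6.09 and 2.19 FPKM in the Ctrl testes, compared with 1.16, 1.21 and 0.977 FPKM for cKO. Every cKO sample lay under every Ctrl sample, but Ctrl 3 was close to the cKO samples. The log2 difference was −1.41 (SE 0.32, adjusted p 0.134 in limma). Without Ctrl 3, the Ctrl sample nearest the cKO values, it was −1.82 with an adjusted p of 0.027 in limma. Without Ctrl 1 it was −1.17 (adjusted p 0.223 in limma), and without Ctrl 2 it was −1.24 (adjusted p 0.309 in limma). *Fgfbp3*, which encodes an FGF-binding protein, averaged 2.32 ± 0.046 FPKM in Ctrl samples and 3.38 ± 0.045 FPKM after knockout. Its log2 difference was 0.40 (adjusted p 0.124 in limma) on 67 to 99 reads per sample. Limma voom on these reads gave 0.54 with a higher adjusted p of 0.199. The median log2 difference of the list was 0.16.

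Other ligands of the same families were mostly low. Of 52 listed, 22 passed the filter, and 0 of them were called, with 2 higher and 1 lower at an unadjusted p under 0.05. *Wnt2* averaged 1.07 ± 0.220 FPKM in Ctrl samples and 0.595 ± 0.193 FPKM after knockout, with no overlap and 15 to 46 reads per sample. *Wnt4*, a ligand known from ovary formation, was at 3.07 ± 0.319 and 4.27 ± 1.02 FPKM with overlap. Their log2 differences were −0.37 and 0.36, with adjusted p of 0.302 and 0.312 in limma, and the median of the list was 0.12. *Wnt2* was at −0.76 with a pseudocount of 0.1 and at −0.84 under limma voom, and *Wnt4* was at 0.21 without cKO 3.

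The list genes closest to the threshold were among those that these pathways commonly raise. Of 24 listed, 22 were tested and 0 were called, with 2 higher and 3 lower at an unadjusted p under 0.05. The median log2 difference of the 22 was 0.13. *Etv4*, an ETS factor gene raised by FGF and GDNF signals, gave 6.37, 6.29 and 6.72 FPKM in the Ctrl testes, compared with 2.76, 3.59 and 3.86 FPKM for cKO. The log2 difference was −0.77 (SE 0.12, adjusted p 0.086 in limma), and limma voom gave −0.93 with an adjusted p of 0.039. *Ccnd1*, a cyclin gene named here after its values were seen, shared the adjusted p of 0.086 in limma. Its means were 5.63 ± 0.451 FPKM in Ctrl samples and 2.82 ± 0.490 FPKM after knockout. The remaining lower gene was *Etv5*, also named after its values were seen, at a log2 difference of −0.23 (adjusted p 0.262 in limma). *Etv5* is a member of the germ cell list as well. The part of fewer germ cells, or of less RNA per germ cell, in these lower values was not tested. *Smad7*, an inhibitory SMAD gene raised by BMP and TGF-beta signals, had the lowest unadjusted p among the higher genes. It averaged 17.7 ± 2.55 FPKM in Ctrl samples and 22.2 ± 1.004 FPKM after knockout, without overlap. Its log2 difference was 0.32 (adjusted p 0.262 in limma), and 0.20 without Ctrl 2.

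Across the 4 lists, 68.2% to 72.7% of the tested genes were higher in cKO testes, beside 50.5% of all genes tested and 8 of the 9 ligand genes. The median of the ligand genes fell from 0.17 to 0.029 without Ctrl 2, and such medians were not computed for the 4 lists. Groups without overlap and higher in cKO made up 13.6% of the other family ligands and 29.6% of the modulators, with the remaining lists between these values, beside 10.3% of all genes tested. In the lower direction the shares were 9.09% of the family ligands, 14.8% of the modulators, 8.11% of the receptors and 13.6% of the targets, beside 12.8% of all genes.

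**Figure D5:**
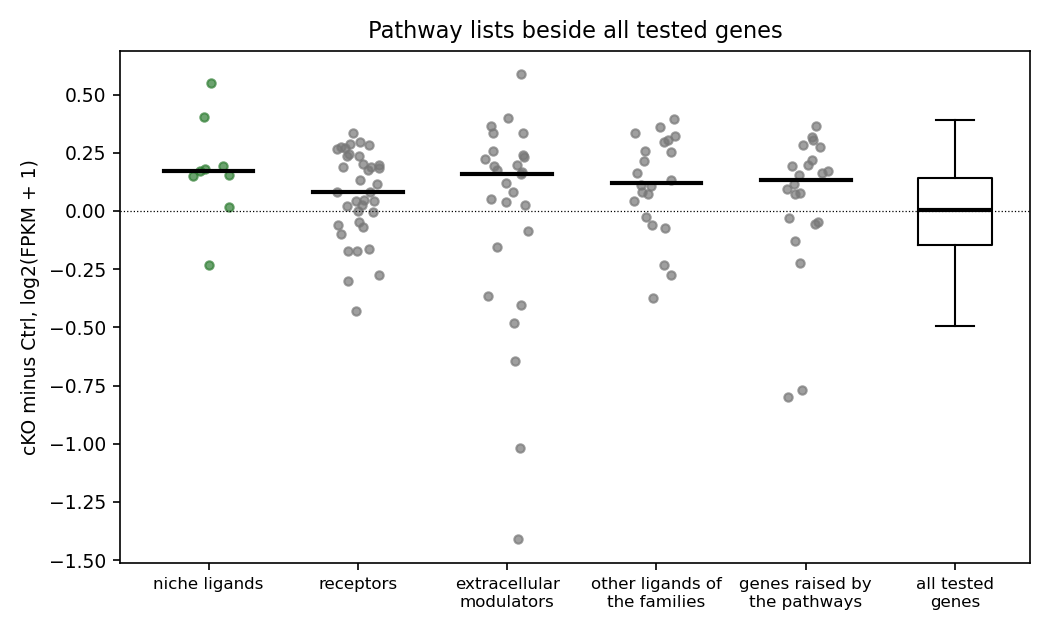
Difference between cKO and Ctrl testes on the log2(FPKM + 1) scale for each tested gene of the ligand set and of 4 pathway lists, with a line at the median, beside a box of all 16206 tested genes (quartiles, with whiskers to the 5th and 95th percentiles). The medians of the lists lie between 0.082 and 0.17, above the median of all genes, and the lowest points are *Chrdl1* at −1.41 and genes of the modulator and target lists.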

How the data were processed

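Polyadenylated RNA of 6 testis samples was sequenced by the authors as paired-end reads. The reads were aligned to mm10 (GRCm38) with HISAT2 (version 2.0.5, per the submitters' processing notes) and counted per gene with featureCounts. The authors deposited FPKM, made from read counts and gene length, with 1 column per sample. From FPKM times gene length, whole reads were recovered: 100% of values lay within 0.01 of a whole multiple of 1 step per sample. The library scaling in the deposited FPKM matched median-of-ratios factors of these reads. Floors of 3 reads cover counting error only.

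Groups and replicate numbers came from the sample titles. Because the deposited unit is FPKM, limma (version 3.58.1, R 4.3.3) was fitted to log2(FPKM + 1) with the 2 groups, no covariate and a mean-variance trend, for the 16206 genes whose mean across all samples reached 0.5 FPKM. Tests were two-sided, and Benjamini-Hochberg adjustment ran over all of these genes, with a threshold of 0.05. A pseudocount of 1 understates changes of low genes. The fits were checked on simulated reads. Where nothing shows that samples came from separate litters, p-values measure the spread between these 3 samples per group.

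The ligand genes and all lists were chosen with earlier results of these data known. The receptor, modulator, ligand, target and cell type lists share a few genes: *Kit* and *Etv5* are also germ cell markers, and *Csf1r* is also a macrophage marker. The genes named were the 10 ligands, *Srsf1*, 11 receptors, any list gene past the threshold, the gene of lowest p in each direction of each list, and genes overlapping a ligand gene. Other genes are said to have been named after their values were seen. Alternatives were adding 0.1 in place of 1, a filter at 1 FPKM or none, protein-coding genes only, TPM, quantile normalization, centring on the Sertoli markers, limma voom, sample weights, the replicate block and leaving out each replicate. All coordinates of the ligand genes were the same in GENCODE mouse release 21. Sequences came from GENCODE transcripts and RefSeq promoters (GRCm38.p6).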

Additional observations from a re-analysis of the deposited data

How the results depend on the processing

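None of the 9 tested ligand genes was called under any of the 16 alternatives, and *Fgf9*, which entered only the fit with no filter, was not called there. *Kitl*, *Cxcl12* and *Vegfa* kept their direction in all of them. *Csf1* was at −0.083 with sample weights, and from −0.093 to 0.089 when each replicate was left out. Centring on the median Sertoli marker, which was not the same gene in every sample, moved the median of all genes to −0.22. All genes share in this shift. Under it the log2 differences were −0.19 for *Csf1*, −0.065 for *Fgf2*, −0.072 for *Wnt5a*, −0.13 for *Wnt6*, −0.074 for *Bmp4*, −0.11 for *Igf1*, −0.10 for *Cxcr4*, −0.26 for *Ackr3*, −0.079 for *Fgfr1*, −0.17 for *Fgfr2*, −0.044 for *Ror2* and −0.19 for *Igf1r*. Relative to that shift, *Cxcl12* at 0.27 and *Kitl* at −0.51 were placed as before. *Ackr3* was at −0.0033 under voom and *Igf1r* at −0.0046 with sample weights. Leaving out each replicate gave −0.093 to 0.26 for *Cxcr4*, −0.13 to 0.071 for *Ackr3*, −0.13 to 0.0085 for *Csf1r*, −0.017 to 0.15 for *Fgfr2*, −0.034 to 0.11 for *Igf1r* and −0.17 to 0.099 for *Kdr*. The cause was not tested.

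*Srsf1* passed the threshold with protein-coding genes only (−0.85), TPM (−0.86), voom (−0.86), sample weights (−0.88) and the replicate block (−0.85), with adjusted p in limma from 0.016 to 0.036. Of the pathway lists, 2 genes were called with protein-coding genes only, 2 with voom and 2 with sample weights (*Etv4* and *Ccnd1* each time), 2 when centred on the Sertoli markers (*Chrdl1* and *Frzb*), and from 0 to 1 when each replicate was left out (*Chrdl1* without Ctrl 3). With the replicate block, all genes gave 84 lower and 14 higher calls against 0 and 0, and *Cxcl12* had an adjusted p of 0.095 and *Vegfa* of 0.138 in limma. Same-numbered samples share only a number, and their deviations correlated at 0.066, 0.016 and 0.088. Over all genes, protein-coding genes only gave 176 and 37 calls, voom 61 and 22, sample weights 55 and 13, centring on the Sertoli markers 332 and 41, TPM 1 and 4, and leaving out each replicate 0 to 15 and 0 to 3. For *Fgf9*, the depth of 3 to 47 reads limits any comparison.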
